A study of Homo sapiens with 9 samples.

Results

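ABCA1, the transporter that loads cellular cholesterol onto apolipoproteins, was followed with 9 further genes of the liver X receptor (LXR) pathway and of cholesterol traffic in cultured esophageal cells. The 10 genes, out of 64253 in the deposited table, are the exporters ABCA1 and ABCG1, the LXR targets MYLIP, SREBF1, SCD and LPCAT3, the receptors NR1H3 (LXR alpha) and NR1H2 (LXR beta), and the lysosomal cholesterol carriers NPC1 and NPC2. The other 9 were picked by name as genes of the ABCA1 pathway, with earlier results of these data known. ABCA1 was picked as the largest rise after transfection. The values of ABCA1 against untreated cells therefore describe how it was chosen and carry no test. The cells were EPC2, labelled as a normal squamous line of the esophagus, and each group had 3 libraries. Untreated cells were set beside cells given an empty vector and cells given a FOXF1 plasmid, both by means of Lipofectamine 2000, a lipid mixture used to bring DNA across the cell membrane. FOXF1 encodes a forkhead transcription factor. The labels name no promoter for the plasmid and no time from transfection to harvest.

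LXRs are nuclear receptors that sit on DNA with a retinoid X receptor (RXR) partner and are switched on by oxysterols, oxidised forms of cholesterol. Active LXR raises genes that move cholesterol out of a cell, such as ABCA1 and ABCG1, and MYLIP, a ubiquitin ligase that removes lipoprotein receptors. It also raises SREBF1, which encodes the transcription factor SREBP-1, and the lipid enzymes SCD and LPCAT3. Cholesterol taken up in lipoproteins leaves the lysosome through NPC2 and NPC1.

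RefSeq promoter entries (GRCh38.p14) were found for 9 of the 10 genes, in 13 windows, and the 250 bases before each start were searched on both strands. ABCG1 had no entry, and starts without an entry were not searched. The LXR element DR4 is a pair of AGGTCA copies spaced by NNNN, and up to 2 mismatches in its fixed letters were allowed. It was found in 1 of the 13 windows, that of ABCA1, and in 2.03% of all 35116 windows. The match lies 69 to 54 bases before the ABCA1 start on the opposite strand and overlaps no other motif searched. ABCA1 is shown with the match in capitals. MYLIP and SREBF1 are shown as examples of genes that were also higher after transfection and hold no DR4 match in this window. The same holds for SCD, which is not shown.
ABCA1, chr9:104928156-104928405, minus strand: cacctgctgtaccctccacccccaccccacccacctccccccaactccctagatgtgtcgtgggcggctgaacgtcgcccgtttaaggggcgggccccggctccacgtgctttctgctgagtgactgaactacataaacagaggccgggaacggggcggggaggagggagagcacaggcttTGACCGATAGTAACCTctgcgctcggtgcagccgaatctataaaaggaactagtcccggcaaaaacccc
MYLIP, chr6:16128836-16129085, plus strand: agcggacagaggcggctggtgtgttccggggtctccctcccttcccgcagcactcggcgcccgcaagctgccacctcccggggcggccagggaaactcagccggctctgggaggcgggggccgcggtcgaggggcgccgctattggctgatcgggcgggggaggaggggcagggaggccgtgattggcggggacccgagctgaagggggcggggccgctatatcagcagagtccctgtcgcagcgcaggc
SREBF1, chr17:17836987-17837236, minus strand: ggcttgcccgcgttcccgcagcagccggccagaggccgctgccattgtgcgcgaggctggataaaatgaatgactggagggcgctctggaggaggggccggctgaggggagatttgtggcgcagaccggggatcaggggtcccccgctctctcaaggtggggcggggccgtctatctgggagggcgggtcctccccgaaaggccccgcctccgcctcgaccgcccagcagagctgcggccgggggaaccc
The forkhead motif GTAAACA, present in 2.98% of all windows, was in none of the 13. The E-box CACGTG (6.34% of all windows) was in the ABCA1 window only, 147 to 142 bases before the start. The GC box GGGCGG, in 42.6% of all windows, was in each of the 3 shown. These matches describe letters, not binding.

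Library totals ran from 34390666 to 39973289 counts, so a gene with no read could have a level of up to 0.0751 to 0.0872 CPM (counts scaled to the size of each library), from 3 counts and for counting error only. FOXF1 had 1, 0 and 0 reads in the untreated libraries, 0, 0 and 6 after the empty vector, and 367, 184 and 141 after its plasmid. Mitochondrially encoded transcripts took 20.9% ± 2.0 of counts in untreated, 11.2% ± 0.761 in empty vector and 14.1% ± 0.517 in FOXF1 plasmid libraries (SD, n = 3), and their part in the results was not tested beyond a fit without them. Of 9 squamous markers SFN alone reached 1 CPM and TP63 had no read, while 6 of 6 simple epithelial and 4 of 5 mesenchymal markers reached it (COL1A2 had no read), so the squamous label is not borne out by these markers. Among cells known for LXR activity, 1 of 7 macrophage, 0 of 5 hepatocyte and 1 of 5 adipocyte markers reached 1 CPM, and PTPRC, LYZ, CD163, ADIPOQ, LEP and TTR had no read. The summed macrophage markers, led by CD14, were 8.76 to 9.76 CPM in untreated, 9.88 to 11.2 in empty vector and 10.3 to 11.5 in FOXF1 plasmid libraries, and the adipocyte sum was 2.61 to 2.89, 2.56 to 4.04 and 3.35 to 4.18 CPM.

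In untreated cells the levels of the 10 genes covered a wide range. Per kilobase of exon (GENCODE 29), SCD, which makes monounsaturated fatty acids, led with 359 ± 21.9 CPM per kb (SD, n = 3). NPC2 followed at 45.1 ± 2.28, SREBF1 at 26.3 ± 1.59 and NR1H2 at 23.3 ± 0.423 CPM per kb. LPCAT3, which puts polyunsaturated chains into phospholipids, lay between 15.9 and 18.0, and NPC1 averaged 10.4 ± 0.686 CPM per kb. NR1H3 was at 2.96 ± 0.220, MYLIP at 1.35 ± 0.144, ABCG1 at 0.128 ± 0.0340 and ABCA1 at 0.0684 ± 0.0119 CPM per kb. No neighbours in this order overlapped among the untreated libraries, and LXR beta was well above LXR alpha. The place of LPCAT3 is less certain, because a gene on the opposite strand overlaps 3100 bases of its exons.

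**Figure D1:**
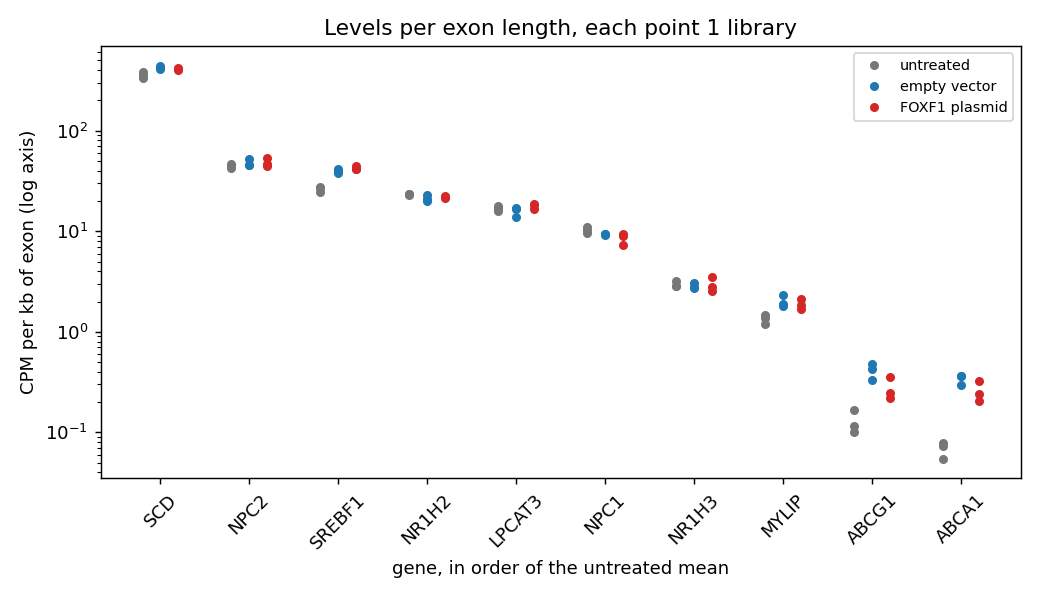
Level of each gene in CPM per kilobase of exon (log axis), each point 1 library, with genes ordered by their untreated mean. SCD lies at the top and ABCG1 and ABCA1 at the bottom in each of the 3 groups, and these exporters overlap in both transfected groups.

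The order of the means was the same in both transfected groups. ABCG1 and ABCA1 could no longer be separated, at 0.411 ± 0.0752 and 0.339 ± 0.0392 CPM per kb after the empty vector and 0.272 ± 0.0733 and 0.257 ± 0.0587 after the FOXF1 plasmid. NPC2 and SREBF1 also overlapped after the FOXF1 plasmid, at 48.5 ± 4.92 and 42.5 ± 2.05 CPM per kb.

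After the empty vector, ABCG1, MYLIP, SREBF1 and SCD rose, ABCA1 was higher in every library, and no receptor or lysosomal carrier was called. ABCA1 (ENSG00000165029, chromosome 9, 104781002 to 104928237, minus strand, GRCh38) had 29, 32 and 22 reads in untreated libraries and 132, 181 and 176 after the empty vector. On TMM-scaled library sizes these are 0.824, 0.882 and 0.624 against 3.33, 4.11 and 4.09 CPM. The lowest empty vector library was well above the highest untreated one. The log2 fold change was 2.30 ± 0.25 (SE), a fold of 4.93, at rank 9 of all 16366 genes tested. Only called genes above a mean log2 CPM of 1 put it at rank 1, with INHBE behind it at 2.03. In bulk RNA, more cells expressing a gene and more RNA per cell cannot be told apart.

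**Figure D2:**
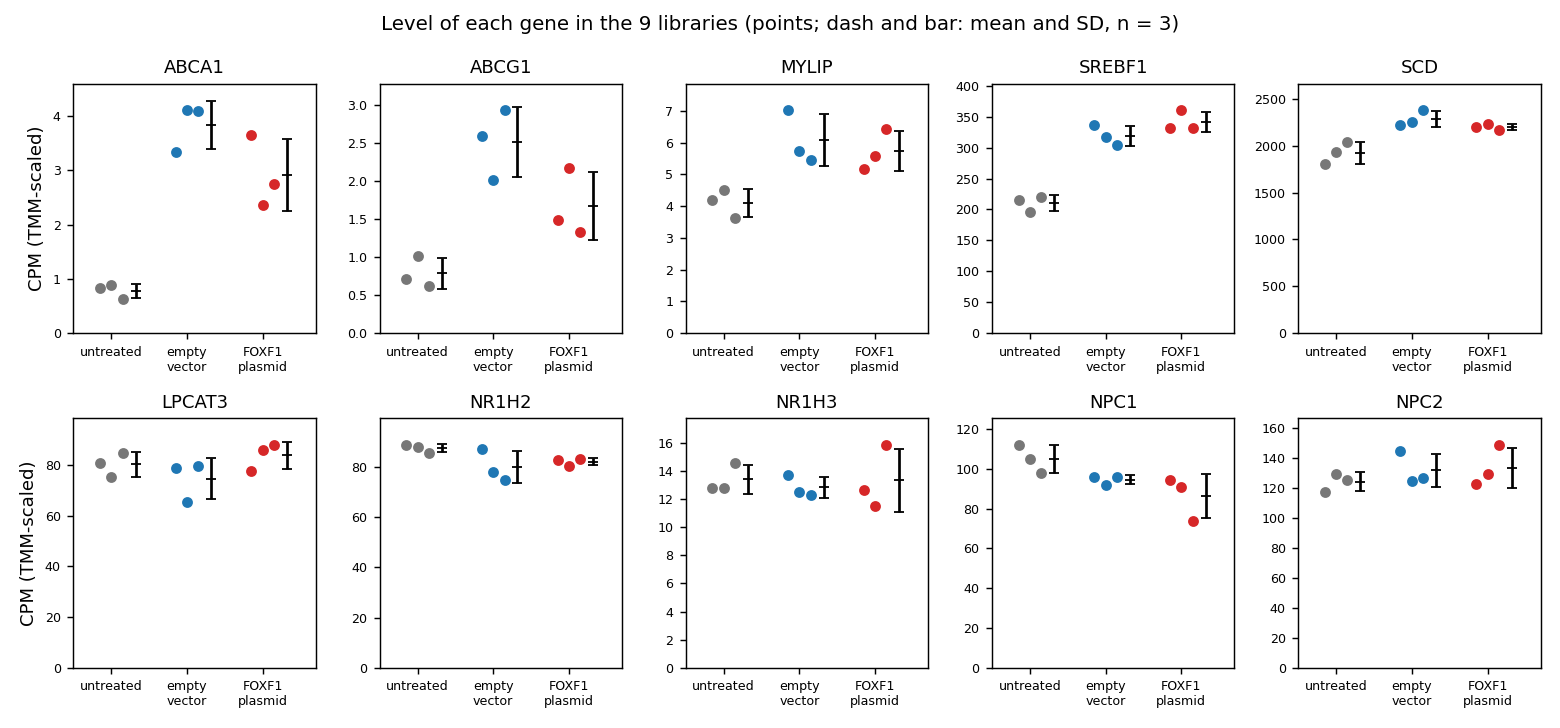
Level of the 10 genes in CPM on TMM-scaled library sizes, each point 1 library, with a dash and bar for the mean and SD (n = 3) and every axis from 0. ABCA1 (chosen for its rise), ABCG1, MYLIP, SREBF1 and SCD are higher in all 3 empty vector libraries than in all 3 untreated ones. NR1H2, NR1H3, LPCAT3 and NPC2 overlap between these groups.

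ABCG1, which passes cholesterol to mature high-density lipoprotein, (ENSG00000160179, chromosome 21, 42199689 to 42297244, plus strand) had 25, 37 and 22 reads in untreated libraries (0.711, 1.02 and 0.624 CPM) and 103, 89 and 126 after the empty vector (2.60, 2.02 and 2.93 CPM). The groups did not overlap. Its log2 fold change was 1.67 ± 0.29, a fold of 3.19 with a 95% interval of 2.11 to 4.83 (edgeR, adjusted p = 0.000105). All 10 genes passed the filter on low counts, and for ABCA1 and ABCG1 the untreated libraries held at least 22 reads each.

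Of the 9 genes other than ABCA1, 4 rose and 0 fell, where 19.6% of all genes were called, 10.2% as higher and 9.37% as lower. The median log2 fold change was 0.088 for these 9 genes and 0.044 for all genes. SREBF1 (ENSG00000072310, chromosome 17, 17810399 to 17837002, minus strand) was at 216, 196 and 220.5 CPM in untreated and 336, 316 and 304 CPM in empty vector libraries. Its groups lay far apart (log2 fold change 0.60 ± 0.066, adjusted p = 1.25e-07). MYLIP was at 4.18, 4.49 and 3.63 and 7.01, 5.74 and 5.46 CPM (log2 fold change 0.56 ± 0.17, adjusted p = 0.0152). MYLIP lost its call without empty vector replicate 1 (0.45, adjusted p = 0.0622) and without untreated replicate 3 (0.48, adjusted p = 0.0762). SCD was at 1806, 1935 and 2041 and 2218, 2258 and 2379 CPM (log2 fold change 0.25 ± 0.068, adjusted p = 0.0103). SCD lost its call without empty vector replicate 3 (0.22, adjusted p = 0.0605) and without untreated replicate 1 (0.19, adjusted p = 0.116). None of these groups overlapped, as for 17.4% of all genes in this direction, and the calls of SREBF1 and ABCG1 stood in all 18 alternative fits.

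LPCAT3, the remaining LXR target of the set, was at 75.2 to 84.9 CPM in untreated and 65.4 to 79.6 CPM in empty vector libraries (log2 fold change -0.11, 95% interval -0.26 to 0.048, adjusted p = 0.359). NR1H2 was at 85.6 to 88.7 and 74.7 to 87.0 CPM (-0.13, interval -0.27 to 0.0063, adjusted p = 0.182), and was called lower without empty vector replicate 1 (-0.19, adjusted p = 0.0423). NR1H3 was at 12.8 to 14.5 and 12.3 to 13.7 CPM (-0.060, interval -0.31 to 0.19, adjusted p = 0.783). The intervals of these 3 genes leave out a rise of the size measured for SREBF1. NPC1 lay below all untreated libraries, at 91.8 to 95.8 against 98.0 to 112 CPM, and was not called (-0.15, interval -0.31 to 0.0025, adjusted p = 0.166). Groups lay apart in that direction for 15.3% of genes. NPC2 was at 117 to 129 and 124 to 144 CPM (0.088, interval -0.062 to 0.24, adjusted p = 0.449), and was called higher with library totals alone (0.33, adjusted p = 0.00168).

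Scaling by library totals alone shifted the median of all genes by 0.245 on the log2 scale after the empty vector and by 0.148 after the FOXF1 plasmid. Under it NR1H2, NR1H3, LPCAT3 and NPC1 changed sign after the empty vector, to 0.11, 0.18, 0.14 and 0.095, with none called. NR1H2 and NR1H3 also did so after the FOXF1 plasmid (0.060 and 0.14), and NR1H2, NR1H3 and NPC2 between the transfected groups (-0.055, -0.042 and -0.079). Relative to the median of all genes, ABCA1 stood at 2.26, ABCG1 at 1.63, SREBF1 at 0.55, MYLIP at 0.52 and SCD at 0.20 with TMM factors. NR1H2 stood at -0.17 with TMM factors and -0.17 with totals alone, and NPC1 at -0.20 and -0.19.

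After the FOXF1 plasmid, set against the same 3 untreated libraries, ABCG1 and SREBF1 rose and NPC1 fell. ABCA1 had 147, 80 and 103 reads, or 3.65, 2.35 and 2.75 CPM, again above every untreated library (log2 fold change 1.91 ± 0.25). ABCG1 had 60, 74 and 50 reads, or 1.49, 2.18 and 1.33 CPM, without overlap (log2 fold change 1.08 ± 0.30, adjusted p = 0.0208). The ABCG1 call was lost with limma-voom (1.05, adjusted p = 0.0605), without FOXF1 plasmid replicate 2 (0.83, adjusted p = 0.141), without untreated replicate 1 (1.00, adjusted p = 0.0779) and without untreated replicate 3 (0.92, adjusted p = 0.0774), and DESeq2 gave it no adjusted p. SREBF1 was at 332, 360.3 and 331 CPM, far above its untreated range, and was called in all 18 alternative fits (log2 fold change 0.69 ± 0.066, adjusted p = 2.35e-08). Of the 9 genes other than ABCA1, 2 rose and 1 fell, where 8.52% of all genes were called, 4.63% as higher and 3.89% as lower. The medians were 0.10 for these 9 genes and 0.016 for all genes.

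NPC1, the membrane protein that hands cholesterol out of the lysosome (ENSG00000141458, chromosome 18, 23506184 to 23586898, minus strand), was at 94.3, 90.9 and 73.8 CPM after the FOXF1 plasmid and 112, 105 and 98.0 CPM untreated. The groups did not overlap, as for 12.6% of genes in this direction (log2 fold change -0.28 ± 0.076, adjusted p = 0.0169). Its call was lost with library totals alone (-0.13, adjusted p = 0.246), without FOXF1 plasmid replicate 3 (-0.18, adjusted p = 0.188) and without untreated replicate 1 (-0.25, adjusted p = 0.0763). Its partner NPC2 was at 122 to 148 CPM (0.10, interval -0.046 to 0.26, adjusted p = 0.438), called higher with library totals alone (0.25, adjusted p = 0.0248).

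MYLIP, at 5.17, 5.59 and 6.43 CPM, lay above all untreated libraries without a call (log2 fold change 0.48 ± 0.17, adjusted p = 0.0719), as did SCD at 2197, 2233 and 2164 CPM (log2 fold change 0.19 ± 0.068, adjusted p = 0.0842). Groups lay apart in this direction for 14.1% of genes. MYLIP was called with DESeq2 (0.47, adjusted p = 0.0464), with library totals alone (0.63, adjusted p = 0.0135) and without empty vector replicate 1 (0.48, adjusted p = 0.0496). SCD was called with DESeq2 (0.17, adjusted p = 0.0257), with library totals alone (0.33, adjusted p = 0.00125) and with limma-voom (0.19, adjusted p = 0.0257). LPCAT3 was at 77.7 to 87.9 CPM (0.061, adjusted p = 0.699). NR1H2, at 80.4 to 83.2 CPM, lay below all untreated libraries without a call (-0.089, adjusted p = 0.477), and NR1H3 was at 11.5 to 15.8 CPM (-0.0068, adjusted p = 0.985).

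**Figure D3:**
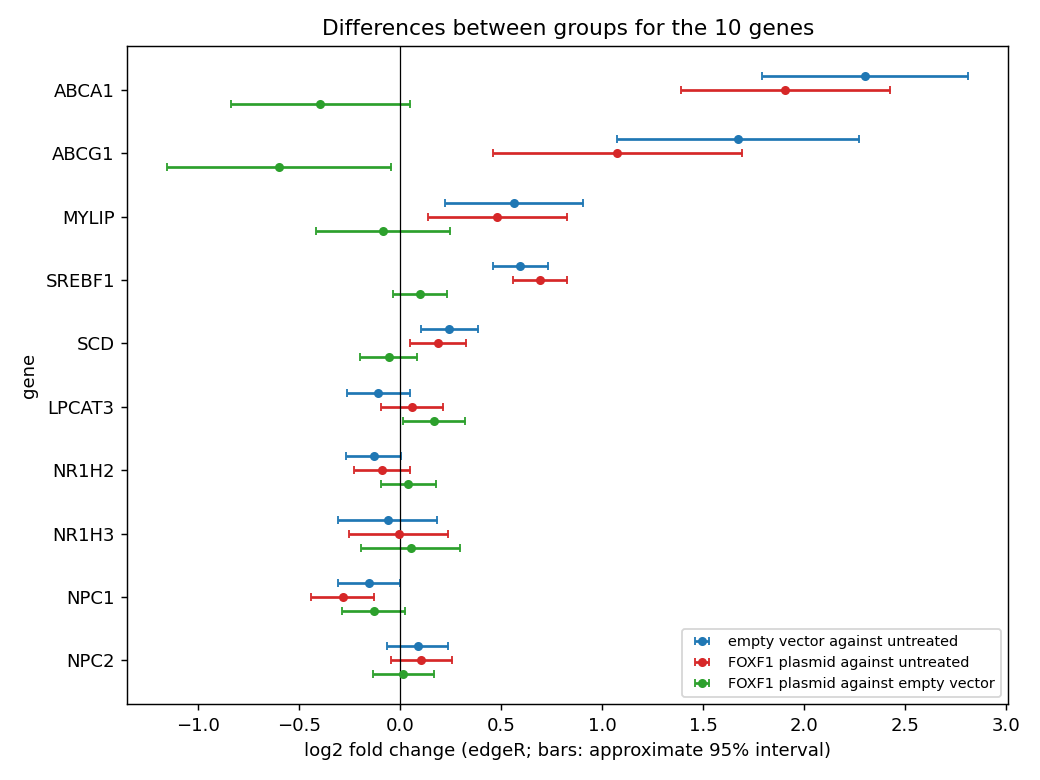
Log2 fold change of the 10 genes in the 3 comparisons, with approximate 95% intervals from the edgeR fit to 9 libraries. ABCG1, MYLIP, SREBF1 and SCD lie right of 0 against untreated cells. ABCA1 does so as well, but it was chosen for its rise, so its intervals against untreated cells carry no test. Between the transfected groups the intervals of ABCG1 and LPCAT3 leave out 0, while none of the 10 genes was called.

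The FOXF1 plasmid was also set against the empty vector, where both groups had received Lipofectamine 2000. None of the 10 genes was called by edgeR, where 0.055% of all genes were, and an unadjusted p under 0.05 was reached by ABCG1 and LPCAT3 alone, as by 9.43% of all genes. Limma-voom called 0 of the 10, and DESeq2 0 of the 6 for which it gave an adjusted p. The groups overlapped for all 10, while 7.33% of all genes lay apart as higher and 5.68% as lower. ABCA1 had a log2 fold change of -0.39 ± 0.22 (95% interval -0.84 to 0.051, adjusted p = 0.590). Because ABCA1 was picked for its rise after transfection, its transfected levels are not free of that choice, and these values are a description. ABCA1 reached 3.65, 2.35 and 2.75 CPM with the plasmid, so 1 library fell inside the empty vector range of 3.33 to 4.11 CPM. ABCG1 had -0.60 ± 0.27 (interval -1.15 to -0.044, adjusted p = 0.502), also with 1 plasmid library inside the empty vector range. LPCAT3 had 0.17 ± 0.076 (interval 0.013 to 0.32, adjusted p = 0.502). The intervals ran from -0.035 to 0.23 for SREBF1, -0.42 to 0.25 for MYLIP, -0.20 to 0.084 for SCD, -0.28 to 0.027 for NPC1 and -0.13 to 0.17 for NPC2. For the receptors they ran from -0.095 to 0.18 (NR1H2) and -0.19 to 0.30 (NR1H3). For ABCA1 the interval holds a fold of 0.559 as well as 1.04.

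Genes whose pattern was most like that of ABCA1 were ranked by the root mean square difference of log2 levels over the 9 libraries, each gene less its untreated mean, as a description. The ranking left out genes whose mean log2 CPM was below 1. Among them INHBE, an activin subunit, was nearest at 0.323, then NDRG1 at 0.327, ANGPTL4, an inhibitor of lipoprotein lipase, at 0.392, DUSP6, an ERK phosphatase, at 0.516 and RP11-574K11.32 at 0.628. ABCG1, which lies under that level and was not ranked, was at 0.673, and SREBF1 was at 1.18. INHBE and ANGPTL4 had log2 fold changes of 2.03 and 1.79 after the empty vector and 1.87 and 1.85 after the FOXF1 plasmid.

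**Figure D4:**
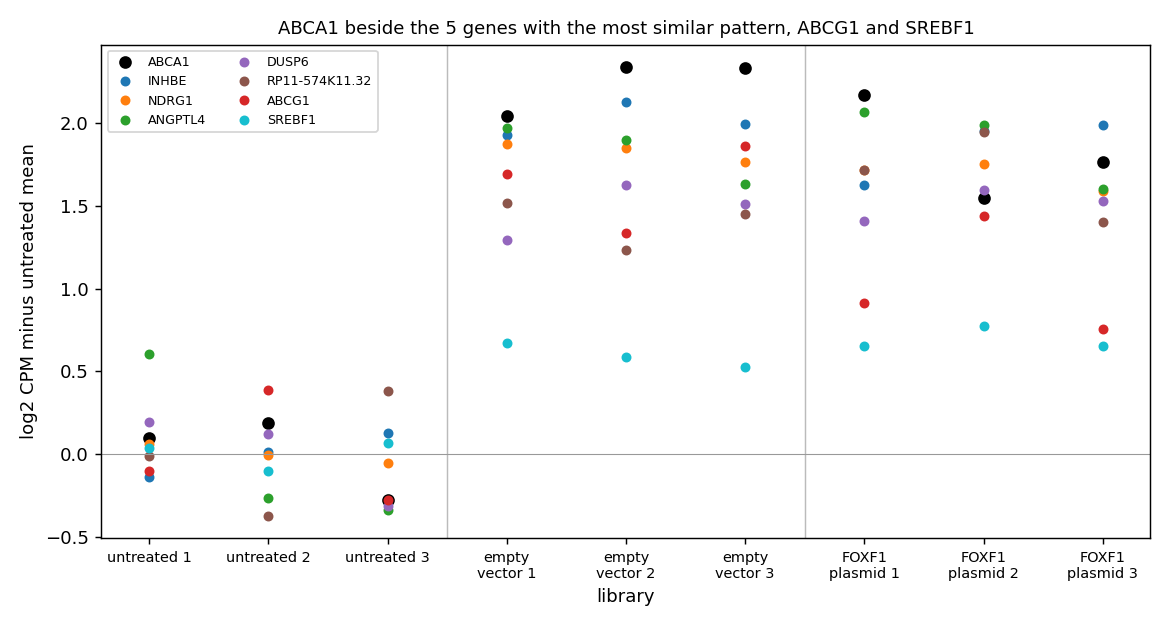
Log2 CPM minus the untreated mean in each of the 9 libraries for ABCA1 (black), the 5 genes nearest to it, ABCG1 and SREBF1. In the 6 transfected libraries ABCA1 sits between 1.55 and 2.34, ABCG1 between 0.76 and 1.86 and SREBF1 between 0.53 and 0.77.

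The wider pathway was described by 8 lists of 122 genes, 101 of them tested. These lists too were drawn up with earlier results of these data known. After the empty vector 18 rose and 12 fell, 29.7% against 19.6% of all genes, and after the FOXF1 plasmid 7 rose and 1 fell, 7.92% against 8.52% of all genes. Between the transfected groups edgeR called 0 of the 101, where 0.055% of all genes were called. An unadjusted p under 0.05 was reached by 12 of the 101 and by 9.43% of all genes. Limma-voom called 0 of the 43 checked one by one, and DESeq2 0 of the 18 of these for which it gave an adjusted p. Among the other direct LXR targets 1 rose and 2 fell of 10 tested after the empty vector (median log2 fold change -0.065). APOE, an apolipoprotein that carries exported cholesterol, had 0.34 (adjusted p = 0.00783), a call lost without empty vector replicate 2 (0.26, adjusted p = 0.0886), without untreated replicate 1 (0.27, adjusted p = 0.0669) and without untreated replicate 2 (0.29, adjusted p = 0.0582). FASN, fatty acid synthase, had -0.25 (adjusted p = 0.0111), lost with library totals alone (-0.0078, adjusted p = 0.923), without empty vector replicate 3 (-0.22, adjusted p = 0.0667) and without untreated replicate 1 (-0.22, adjusted p = 0.0729). APOC1 had -0.41 (adjusted p = 0.0190), lost with library totals alone (-0.17, adjusted p = 0.333), without empty vector replicate 3 (-0.32, adjusted p = 0.119) and without untreated replicate 1 (-0.35, adjusted p = 0.0981). APOE was also called higher after the FOXF1 plasmid (0.30, adjusted p = 0.0386). That call was lost with limma-voom (0.30, adjusted p = 0.0543), without FOXF1 plasmid replicates 2 (0.23, adjusted p = 0.203) and 3 (0.30, adjusted p = 0.108), and without untreated replicates 1 (0.23, adjusted p = 0.220) and 2 (0.24, adjusted p = 0.196).

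Among receptors, partners and coregulators 3 rose and 1 fell of 18 tested (median log2 fold change 0.0024). Of all genes 19.6% were called, with a median of 0.044. TBL1XR1 (0.47, adjusted p = 0.0445) and NCOA3 (0.27, adjusted p = 0.0371), both coregulators, lost their calls as higher in 8 and 6 of 18 alternative fits. PPARA, a lipid-sensing receptor that also pairs with RXR, rose by 0.53 (adjusted p = 0.00458), and this call stood in every alternative fit. PPARD, its relative, had -0.21 (adjusted p = 0.0156), lost with library totals alone (0.034, adjusted p = 0.677), without empty vector replicate 2 (-0.20, adjusted p = 0.0709) and without untreated replicate 1 (-0.19, adjusted p = 0.0684). RXRB, an RXR partner, had -0.093 (adjusted p = 0.375), and RXRA had -0.15 (adjusted p = 0.112), called with DESeq2 (-0.18, adjusted p = 0.0411). Among enzymes that make or consume oxysterols 0 rose and 1 fell of 7 tested (median log2 fold change -0.12). The one called was EBP (-0.24, adjusted p = 0.0133), lost with library totals alone (0.0070, adjusted p = 0.943), without empty vector replicate 2 (-0.19, adjusted p = 0.0984) and without untreated replicate 3 (-0.20, adjusted p = 0.0599).

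In the list of SREBP regulation and lipoprotein uptake 6 rose and 2 fell of 16 tested (median log2 fold change 0.14), where 19.6% of all genes were called. VLDLR, a lipoprotein receptor that MYLIP targets, went from 5.06 ± 0.588 CPM to 9.23 ± 1.32 after the empty vector (log2 fold change 0.87 ± 0.15, adjusted p = 7.66e-05) and 8.68 ± 0.665 after the FOXF1 plasmid (log2 fold change 0.78 ± 0.15, adjusted p = 0.000759). LRP1, a large endocytic receptor, rose by 0.59 and 0.47 (adjusted p = 2.38e-07 and 2.25e-05). INSIG2, which holds SREBP precursors in the endoplasmic reticulum, rose by 0.92 after the empty vector (adjusted p = 0.000712). SREBF2, which encodes SREBP-2, had 0.035 (adjusted p = 0.756), called with library totals alone (0.28, adjusted p = 0.000595). The median of all genes under that scaling was 0.29. LRP8, a receptor related to VLDLR, was called lower after the empty vector (-0.23, adjusted p = 0.0322), a call lost with library totals alone (0.013, adjusted p = 0.917), with no filter on low counts (-0.23, adjusted p = 0.0513), without empty vector replicate 2 (-0.23, adjusted p = 0.106), without empty vector replicate 3 (-0.19, adjusted p = 0.152), without untreated replicate 1 (-0.22, adjusted p = 0.0962) and without untreated replicate 3 (-0.23, adjusted p = 0.0774). After the FOXF1 plasmid LRP8 was also called lower (-0.30, adjusted p = 0.0115), lost with library totals alone (-0.16, adjusted p = 0.204) and without FOXF1 plasmid replicate 3 (-0.26, adjusted p = 0.0835). SCAP, which escorts SREBP precursors, was called lower after the empty vector (-0.19, adjusted p = 0.0409), lost with library totals alone (0.061, adjusted p = 0.406), with only the groups compared in the fit (-0.18, adjusted p = 0.0636), without FOXF1 plasmid replicate 1 (-0.19, adjusted p = 0.0530), without empty vector replicate 2 (-0.17, adjusted p = 0.130), without empty vector replicate 3 (-0.15, adjusted p = 0.173) and without untreated replicate 1 (-0.14, adjusted p = 0.206).

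In the list of cholesterol movement and storage 2 rose and 2 fell of 22 tested (median log2 fold change 0.15), where 19.6% of all genes were called. LIPA, the lysosomal enzyme that frees cholesterol from its esters, was at 16.6, 21.4 and 21.9 CPM untreated and 29.1, 31.5 and 37.6 CPM after the empty vector (log2 fold change 0.71 ± 0.10, adjusted p = 7.45e-06). After the FOXF1 plasmid it was at 28.6, 27.9 and 28.9 CPM (log2 fold change 0.51 ± 0.10, adjusted p = 0.00135). ANXA6, a membrane-binding annexin, rose by 0.34 and 0.33 (adjusted p = 0.000438 and 0.00161). GRAMD1A, a sterol carrier at membrane contact sites, was called lower after the empty vector (-0.25, adjusted p = 0.00457), lost with library totals alone (-0.0081, adjusted p = 0.925). OSBPL7, of the oxysterol-binding protein family, was called lower as well (-0.26, adjusted p = 0.0208), lost with library totals alone (-0.012, adjusted p = 0.918), without empty vector replicate 2 (-0.27, adjusted p = 0.0616), without empty vector replicate 3 (-0.19, adjusted p = 0.136) and without untreated replicate 1 (-0.22, adjusted p = 0.115). VLDLR, LRP1, LIPA and ANXA6 were called in both comparisons in all their alternative fits.

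In the ABCA and ABCG families, leaving out ABCA1 and ABCG1, 1 rose and 0 fell of 6 tested (median log2 fold change -0.020), where 19.6% of all genes were called. ABCA5 went from 1.10 ± 0.166 CPM to 2.61 ± 0.668 after the empty vector (log2 fold change 1.25 ± 0.28, adjusted p = 0.00135) and was at 1.33 ± 0.259 after the FOXF1 plasmid (log2 fold change 0.28 ± 0.29, adjusted p = 0.625). Between the transfected groups it had -0.97 (adjusted p = 0.216), called without empty vector replicate 1 (-1.14, adjusted p = 0.0271). ABCA2 had 0.10 after the empty vector (adjusted p = 0.268), called with library totals alone (0.35, adjusted p = 0.000212), and ABCA3 had -0.14 (adjusted p = 0.135).

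**Figure D5:**
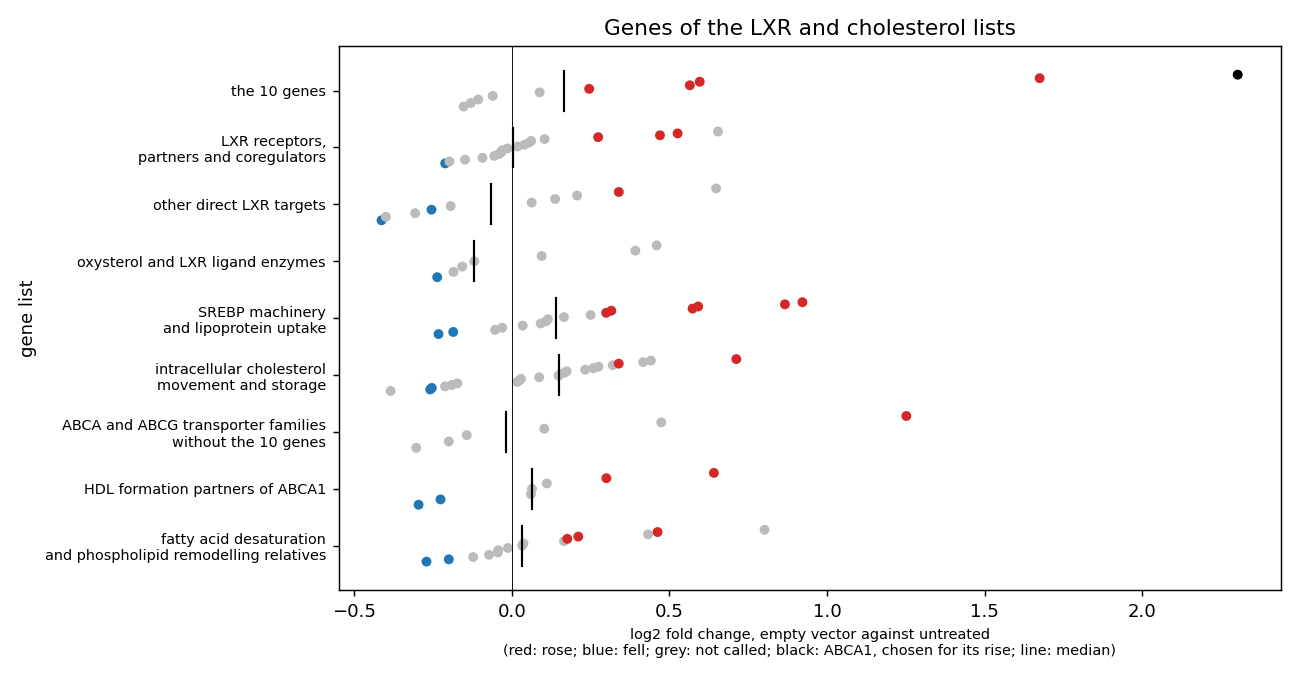
Log2 fold change of the empty vector against untreated cells for the tested genes of the 10 and of 8 pathway lists, coloured by call, with ABCA1 in black and each list's median as a line. ABCA1, chosen for its rise, and ABCG1 stand furthest right at 2.30 and 1.67, followed by ABCA5 at 1.25.

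Among partners of ABCA1 in forming high-density lipoprotein 2 rose and 2 fell of 7 tested (median log2 fold change 0.064). Of all genes 19.6% were called, with a median of 0.044. SNTB1, a syntrophin that binds ABCA1, had 0.64 (adjusted p = 0.0191), lost without empty vector replicate 3 (0.45, adjusted p = 0.167) and without untreated replicate 3 (0.54, adjusted p = 0.0863). APOA1, the acceptor of ABCA1 cholesterol, was at 0.341, 0.221 and 0.624 CPM in untreated libraries. Among relatives of SCD and LPCAT3 3 rose and 2 fell of 15 tested, with a median log2 fold change of 0.033 against 0.044 for all genes. LPCAT1 (0.18, adjusted p = 0.0471), FADS1 (0.21, adjusted p = 0.0179) and MBOAT7 (-0.20, adjusted p = 0.0285) lost their calls in 12, 4 and 5 of 18 alternative fits. SCD5 had 0.46 (adjusted p = 0.0110), lost without empty vector replicate 3 (0.31, adjusted p = 0.134) and without untreated replicate 1 (0.37, adjusted p = 0.0790). ELOVL1, which elongates long fatty acids, had -0.27 (adjusted p = 0.00515), lost with library totals alone (-0.024, adjusted p = 0.790). SNTB1 and FADS1 were also called higher after the FOXF1 plasmid. There SNTB1 lost its call without FOXF1 plasmid replicate 3 (0.53, adjusted p = 0.181) and without untreated replicates 2 (0.73, adjusted p = 0.0567) and 3 (0.61, adjusted p = 0.0802). FADS1 lost it with RLE factors (0.21, adjusted p = 0.0501), without FOXF1 plasmid replicates 2 and 3 and without untreated replicates 1 and 2.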

How the data were processed

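Poly(A) RNA of EPC2 cells was sequenced in 9 libraries with a stranded kit, per the labels' protocols. The authors deposited raw read counts per Ensembl gene, per the file headers, and the submitters' processing notes name bcl2fastq, STAR 2.5.2b, HTSeq and GRCh38. The annotation release and strand setting were not given in the sources used here. Exons of LPCAT3, NPC1, NPC2, NR1H3 and SREBF1 overlap opposite-strand genes in GENCODE 29, so reads there could be shared or dropped. For LPCAT3 the overlap, with EMG1, takes 3100 bases of its 4.725 kb of exon. For the others it takes 103 to 604 bases. The level of LPCAT3 per kb is therefore the most open to this.

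Counts were tested with edgeR 4.0.16 (R 4.3.3), using filterByExpr with a minimum count of 10 (16366 genes kept), TMM factors and a quasi-likelihood F test on all 9 libraries with a mean per group. Benjamini-Hochberg adjustment covered all genes tested, and genes below 0.05 were called. The approximate SE came from the log2 fold change and its F statistic. Simulated libraries of all 3 groups used each gene's mean over the 9 libraries and the fitted trend of spread. In 1 group 70 genes were altered by a factor of 1.25, 70 by 1.5 and 60 by 2. These genes had a mean log2 CPM above 1, which leaves out ABCG1, and were far fewer than those called in the data. For the empty vector against untreated cells (16027 genes), 35.7%, 90% and 95% of the altered genes were recovered, and 7 calls were false. For the FOXF1 plasmid against untreated cells (16025 genes) the shares were 24.3%, 70% and 95% with 6 false calls, and against the empty vector (16027 genes) 40%, 85.7% and 95% with 6. Alternatives were DESeq2 1.42.0, limma-voom (limma 3.58.1), RLE factors, library totals alone, no filter, a filter of 1 CPM in at least 3 libraries, only the groups compared, a replicate block, mitochondrial genes left out, and each library left out.

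Libraries of a group were no duplicates of each other (chi-square divided by its degrees of freedom was 8.60 or more), and all were used. The triplicates are called biological in the design text, and the p-values reflect the spread among them. The 10 genes and the lists were chosen with earlier results of these data known. Genes were named by a rule: the 10 genes, set pathway genes, the 3 largest called rises and falls per list, the 5 nearest to ABCA1, and FOXF1. Some genes that the rule selects are not reported here.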

Additional observations from a re-analysis of the deposited data

How the results depend on the processing

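For the 10 genes, 535 values from alternative fits were compared with the reported ones: 515 kept their side of the threshold, 11 lost a call and 9 gained one, and 18 of those without a call changed sign. The kept ones include 18 fits of ABCA1 in each comparison with untreated cells. These ABCA1 fits reflect how the gene was chosen and are no measure of stability. Of the 9 genes other than ABCA1, the number called for the FOXF1 plasmid against untreated cells was 3, became 5 with library totals alone, and ran from 1 to 4 with a library left out, 1 being the value without untreated replicate 1. No sign was seen that the replicate numbers pair the libraries, though low correlations cannot exclude pairing. Correlations of same-numbered deviations ran from -0.0904 to 0.0837, with 0 of 9 above 0.1, and 2 of 9 libraries were closest to their own number. With a replicate block the FOXF1 plasmid against the empty vector had 16 calls in place of 9, with none among the 10 genes. Against untreated cells the block gave 3292 calls in place of 3209 for the empty vector and 1544 in place of 1394 for the FOXF1 plasmid. Over all genes, library totals alone gave 6059 calls in place of 3209 for the empty vector (94.4% of them higher, in place of 52.2%) and 2500 in place of 1394 for the FOXF1 plasmid against untreated cells (92.8% in place of 54.3%). With a library left out these counts ran from 2092 (without empty vector replicate 2) to 3897 and from 817 (without untreated replicate 2) to 1729, with 883 without untreated replicate 1 and 927 and 875 without FOXF1 plasmid replicates 2 and 3. The FOXF1 plasmid against the empty vector had 108 calls with DESeq2, 16 with RLE factors, 96 without a filter on low counts, 4 without mitochondrial genes, and from 1 (without FOXF1 plasmid replicate 2) to 326 (without empty vector replicate 1) with a library left out (23 and 16 without untreated replicates 1 and 3, and 2 without empty vector replicate 2); the cause was not tested. With library totals alone the sign changed for SCAP (0.061), LRP8 (0.013), PPARD (0.034), EBP (0.0070) and MBOAT7 (0.045) with the empty vector. Of 27 called list genes checked one by one, 9 kept their call with each library left out. With a library left out, the ABCA1 log2 fold change ran from 2.16 to 2.39 after the empty vector. ABCA1 and ABCG1 rest on 22 to 181 reads per library, which limits what can be seen in them.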
